A study of Mus musculus with 14 samples.

Results

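Antisense genes, as GENCODE release M21 types them, were followed in F4/80+ macrophages taken from 4T1 tumours. Of the 2959 mouse genes with the type antisense in that release, 1163 had a row in the normalised expression table of 24556 genes, and 179 reached an unlogged value of 10 in 3 or more of the 14 libraries. The other 984 reached that level in fewer than 3 libraries and are not described further. The members were chosen by these measured levels over all 14 libraries, so the levels at the edge are given only as a description: the third-highest library of Gm10603 read 3.32 and that of Gm16726 read 3.34 on the log2 scale, just inside the limit, while Gm15283 and Gm14232, both at 3.29, fell just outside it.

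The study asked how macrophages differed between tumours that grew from pretreated and from control cancer cells. 4T1 is a mouse mammary carcinoma line of Balb/c origin. Before injection into the fat pad of Balb/c mice, the 4T1 cells were kept for 5 days in 5 µM GSK269962A, a small-molecule kinase inhibitor, or in the solvent DMSO. Tumours were taken 8 or 14 days later, and F4/80+ cells were drawn from them with magnetic beads over 2 successive columns. The 4 groups were DMSO day 8 (3 libraries), GSK day 8 (3 libraries), DMSO day 14 (4 libraries) and GSK day 14 (4 libraries). The treatment was given to the cancer cells before grafting, and no label gives a treatment of the mice, their age, or whether each library came from a mouse of its own. The p-values below therefore measure the spread between libraries, which may be partly technical.

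An antisense transcript is read from the DNA strand opposite to another gene, so that the 2 RNAs are complementary where their exons overlap. Many start close to a promoter, are made at low level, stay in the nucleus and are removed quickly by the nuclear RNA exosome. Some act on the gene they overlap: Tsix, read through the Xist gene on the X chromosome, is the classical repressor of Xist, the RNA that coats the inactive X. Whether the libraries kept the strand of each RNA is not given in the sources used here, so reads from bases that an antisense gene shares with its partner cannot be told apart from reads of the partner.

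Of the 179 antisense genes, 171 overlapped a gene on the other strand. Each was set beside a single such gene, taking protein-coding genes first, then most shared exon bases, then most shared gene-body bases. In 72 pairs the antisense gene lay inside the overlapped gene, in 46 the 3′ ends overlapped, in 45 the 5′ ends overlapped, and in 8 the overlapped gene lay inside the antisense gene. The remaining 8, among them 4930430E12Rik, had no opposite-strand gene in that release although they carry the type. The overlapped gene was protein coding in 167 cases, a number that this order of choice favours. Exon bases were shared with it in 135 cases and coding bases in 88, and 30 antisense genes began within 1000 bases of their partner's start. For 147 antisense genes the partner also passed the level filter.

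**Figure D1:**
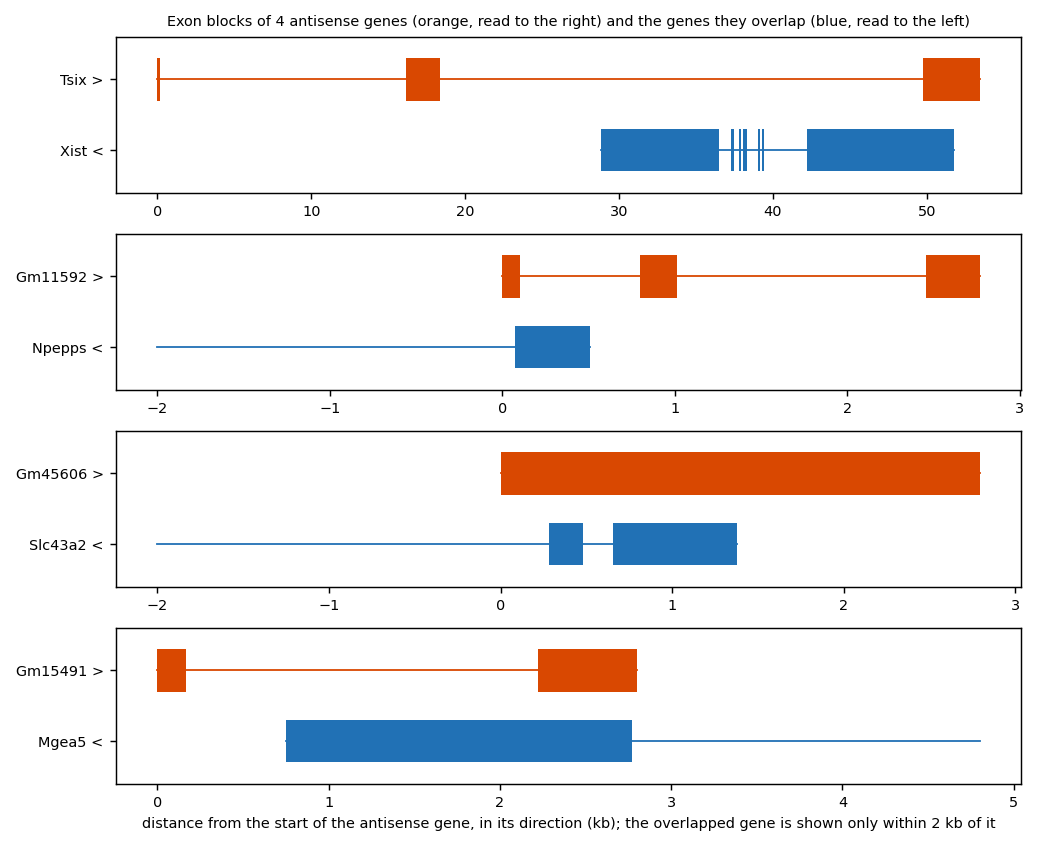
Exon blocks (boxes) of 4 antisense genes in orange and of the genes they overlap in blue, drawn to scale against the distance in kb from the start of the antisense gene in its own direction, with the overlapped gene cut off 2 kb beyond it. Gm11592 and Gm45606 overlap the 5′ ends of Npepps and Slc43a2, Gm15491 overlaps the last exon block of Mgea5, and the exons of Tsix cover part of Xist.

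The shared bases are shown for 4 of the antisense genes that fell on day 14, because reads from these bases belong equally to the coding gene when strand is not known. Each is written 5′ to 3′ along the antisense RNA, from the GENCODE M21 transcripts (GRCm38), with the bases complementary to the coding sequence of the overlapped gene in capitals and 20 bases on each side in lower case. The capitals cover chr19:45752147-45752280 (+ strand) in Gm15491 against Mgea5, chr11:75532629-75532788 (- strand) in Gm45606 against Slc43a2, chr11:97280201-97280231 (+ strand) in Gm11592 against Npepps, and chr9:22076250-22076351 (+ strand) in Gm16845 against Ecsit.
Gm15491: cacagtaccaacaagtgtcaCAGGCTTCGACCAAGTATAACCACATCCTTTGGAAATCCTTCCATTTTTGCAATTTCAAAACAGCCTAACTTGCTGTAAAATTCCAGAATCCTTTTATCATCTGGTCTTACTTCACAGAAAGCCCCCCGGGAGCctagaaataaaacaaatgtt
Gm45606: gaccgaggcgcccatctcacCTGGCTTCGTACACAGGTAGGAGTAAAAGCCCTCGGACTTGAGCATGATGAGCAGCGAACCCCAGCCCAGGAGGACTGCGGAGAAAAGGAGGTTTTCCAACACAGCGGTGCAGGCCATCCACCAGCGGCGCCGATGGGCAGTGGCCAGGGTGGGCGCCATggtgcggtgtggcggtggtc
Gm11592: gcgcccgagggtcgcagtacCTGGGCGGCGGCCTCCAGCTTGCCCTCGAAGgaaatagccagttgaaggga
Gm16845: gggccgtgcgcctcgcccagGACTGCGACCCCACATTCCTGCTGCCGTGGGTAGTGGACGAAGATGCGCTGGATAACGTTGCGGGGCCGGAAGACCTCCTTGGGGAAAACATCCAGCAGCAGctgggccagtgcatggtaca
The shared coding stretch was 134 bases long in Gm15491, 160 in Gm45606, 31 in Gm11592 and 102 in Gm16845. G and C made up 42.5% of it in Gm15491 and 74.2% in Gm11592.

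Promoter windows of 300 bases (250 before to 50 after the start, RefSeq, GRCm38.p6) were found by symbol for 77 of the 179 antisense genes, 4 of them among those that fell on day 14. The letters GGGCGG, a GC box of the kind that Sp1 binds, were searched on both strands and stood in 4 of these 4 windows, in 37.5% of the 96 windows of antisense genes and in 35.7% of all 32851 windows. CCAAT stood in 1 of the 4 windows and in 37.4% of all windows, and TATAAA in 0 and 13.6%. The windows of the 4 held a median of 34 CG dinucleotides, against 7.5 in windows of antisense genes and 7 in all windows. A match of letters is a description, not a binding site. Both windows below are on the + strand, with matches to GGGCGG or CCAAT on either strand in capitals, at chr9:22070752-22071051 for Gm16845 and chr2:163419521-163419820 for 2900093K20Rik.
Gm16845: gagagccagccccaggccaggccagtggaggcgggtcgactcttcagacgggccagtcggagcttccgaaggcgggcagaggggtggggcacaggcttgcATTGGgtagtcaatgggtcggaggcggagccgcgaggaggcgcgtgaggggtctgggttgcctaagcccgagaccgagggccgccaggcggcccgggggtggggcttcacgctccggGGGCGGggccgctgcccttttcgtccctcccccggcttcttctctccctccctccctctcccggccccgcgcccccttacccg
2900093K20Rik: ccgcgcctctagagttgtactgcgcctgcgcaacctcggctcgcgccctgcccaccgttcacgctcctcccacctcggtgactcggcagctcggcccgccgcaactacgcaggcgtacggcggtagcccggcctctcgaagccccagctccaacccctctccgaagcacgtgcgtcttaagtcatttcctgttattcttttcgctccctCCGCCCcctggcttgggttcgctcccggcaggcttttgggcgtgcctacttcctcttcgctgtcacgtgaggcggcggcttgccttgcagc

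Levels are log2 normalised values, and the files hold no counts, so the depth of each library is unknown. The mean over 14 libraries ran from 2.90 to 12.28 among the 179 antisense genes, with a median of 4.77, against a median of 7.43 among the 147 partners that passed the filter. In 138 antisense genes every library reached 10 on the unlogged scale, and in 41 at least 1 library did not. Within libraries the antisense gene was below its partner in all 14 libraries in 105 of 147 pairs and above it in all 14 in 11 pairs. Per kilobase of exon, 55 of the 147 antisense genes had the higher mean level.

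The libraries fell into 2 kinds in how a pair of overlapping ribosomal-RNA-containing gene models on opposite strands was filled. AY036118 (- strand) exceeded Gm42418 (+ strand) in 9 libraries and was below it in 5, with values between 7.61 and 18.96 for AY036118. AY036118 was the higher one in 1 of 3 DMSO libraries and 2 of 3 GSK libraries of day 8, in 2 of 4 DMSO libraries of day 14 and in 4 of 4 GSK libraries of day 14. Whether strand was handled alike in all libraries is not given in the sources used here. If it was not, the division of reads between an antisense gene and its partner would differ between the 2 kinds of library. All 4 GSK libraries of day 14 were of 1 kind, so kind and group are partly confounded on that day. All 12 macrophage markers examined passed the level filter, among them Adgre1, which encodes F4/80. Of markers of other cells, 9 of 13 for 4T1 epithelium, 8 of 8 for endothelium, 5 of 10 for neutrophils, 5 of 8 for fibroblasts, 3 of 8 for B cells and 2 of 10 for T and NK cells passed. In such mixed samples, fewer cells of a type and less RNA per cell cannot be told apart.

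On day 14, 14 of the 179 antisense genes fell and 0 rose in macrophages from GSK tumours (limma, Benjamini-Hochberg adjusted p under 0.05 over 11886 genes). That is 7.82% lower, beside 5.73% lower and 5.1% higher among all genes tested, so the share that fell was near that of all genes. Without adjustment 43 antisense genes had a limma p under 0.05, beside 27.3% of all genes. Of all genes, 10.8% passed in either direction after adjustment. The log2 change was negative for 124 of 179 antisense genes (69.3%, median -0.14), for 47.6% of all genes (median 0.02), and for 44.9% of the 147 overlapped genes (median 0.03), of which 9 rose and 9 fell. Among 203 lincRNA genes 8 rose and 8 fell, with a median of -0.08. All 14 that fell reached the level limit in every library, so the filter did not depend on one group for them. The groups did not overlap on day 14 for 26 antisense genes that were lower and 7 that were higher with GSK, beside 10.7% of all genes lower and 11.2% higher.

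**Figure D2:**
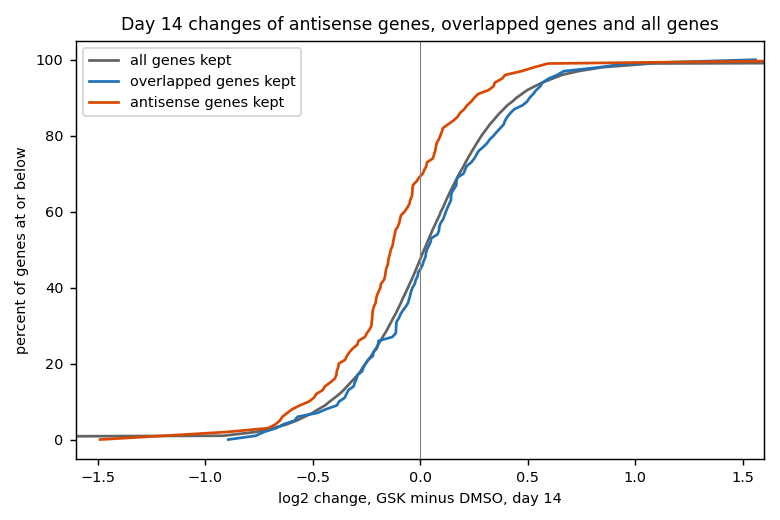
Percent of genes (vertical axis) with a day 14 log2 change, GSK minus DMSO, at or below the value on the horizontal axis, for all 11886 genes (grey), the 147 overlapped genes (blue) and the 179 antisense genes (orange). The orange line crosses zero at 69.3%, the grey line at 47.6% and the blue line at 44.9%.

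The 14 lay on 11 chromosomes and in every arrangement: 5 had 5′ ends overlapping, 1 had 3′ ends overlapping, 5 lay inside the other gene, 2 held it and 1 had no opposite-strand gene. Of the 137 antisense genes that share exon bases with any opposite-strand gene 9 fell, and of the 42 that share none 5 fell. With the ribosomal RNA kind of library as a term in limma, 5 of the 14 still passed on day 14. Using only the 9 libraries with AY036118 higher left 1 DMSO library of day 8 and 2 of day 14. In that fit the day 14 log2 change was -1.52 for Gm15491, -0.80 for Tsix, -0.49 for Gm44851 and -0.42 for 0610040B10Rik. With all 14 libraries these were -1.49, -0.92, -0.64 and -0.56. Left out one at a time, day 14 libraries lowered the count to 5 (without DMSO replicate 2 or GSK replicate 4) or 9 (without DMSO replicate 4 or GSK replicate 1, 2 or 3), and without DMSO replicate 1 there were 9 lower and 1 higher. Mitochondrially encoded genes moved on the same day: 7 of 16 rose and 0 fell, with summed log2 levels of 16.02 to 16.35 in DMSO and 16.37 to 17.09 in GSK libraries. Of the 12 macrophage markers 4 rose and 2 fell. Their part in the antisense result was not tested.

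**Figure D3:**
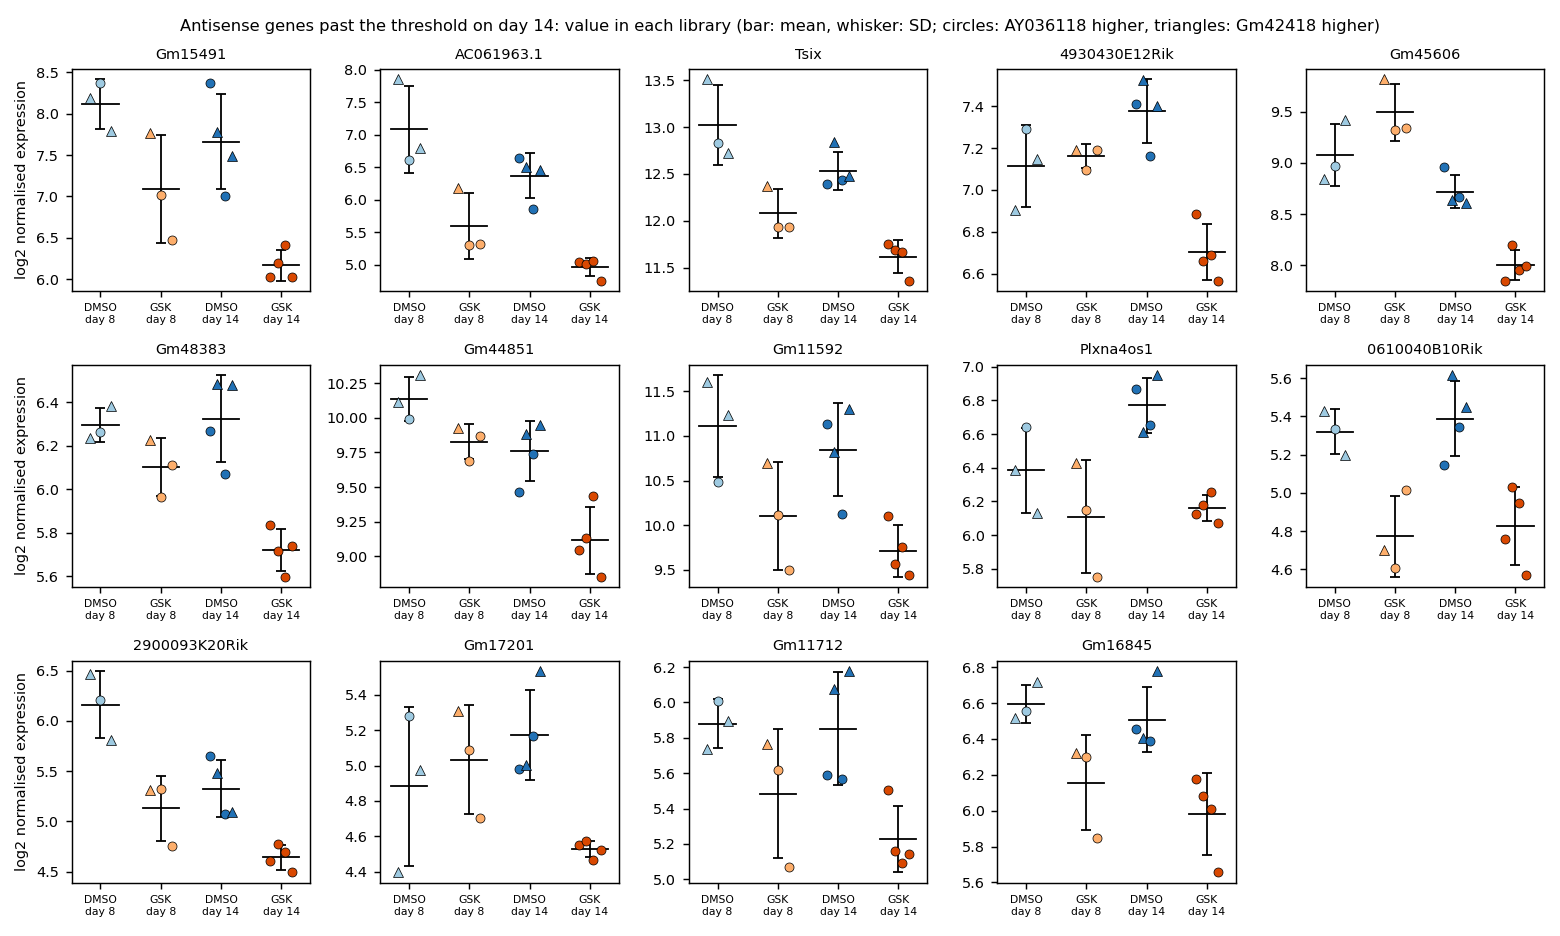
Log2 normalised expression of the 14 antisense genes that fell on day 14, in each of the 14 libraries by group, with the mean as a bar, the SD as a whisker, circles for libraries with AY036118 higher and triangles for those with Gm42418 higher. In every panel the 4 GSK libraries of day 14 lie below the 4 DMSO libraries of day 14.

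Tsix (chrX:103431517-103484957, + strand) was the antisense gene with the highest level. It read 13.51, 12.84 and 12.72 in DMSO and 12.38, 11.93 and 11.93 in GSK libraries of day 8. On day 14 it read 12.39, 12.84, 12.43 and 12.48 in DMSO and 11.76, 11.69, 11.67 and 11.36 in GSK libraries. The groups did not overlap on either day. The mean fell from 12.54 ± 0.20 to 11.62 ± 0.17 (SD, n = 4 each) on day 14, 1.89-fold lower, a log2 change of -0.92 (SE 0.18, limma adjusted p = 0.00797). The day 8 change was of similar size, -0.94, with an adjusted p of 0.0585 in limma.

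Xist (chrX:103460366-103483254, - strand) went the other way on day 14. Its values were 8.70, 8.36, 8.62 and 8.07 in DMSO and 9.03, 9.12, 9.17 and 9.82 in GSK libraries, without overlap, and it rose by 0.85 on the log2 scale (SE 0.18, limma adjusted p = 0.0113). On day 8 Xist read 8.47, 8.65 and 8.51 in DMSO and 8.56, 8.64 and 8.94 in GSK libraries, which overlap. Within the DMSO group of day 14, libraries with AY036118 higher read 8.70 and 8.62 for Xist and 12.39 and 12.43 for Tsix. Those with Gm42418 higher read 8.36 and 8.07 for Xist and 12.84 and 12.48 for Tsix. All 4 GSK libraries of day 14 had AY036118 higher, so kind and group are partly confounded for this pair. With kind as a term in limma, the Tsix change was -0.76 (adjusted p = 0.0324). The part of kind in the Xist rise was not tested. Tsix and Xist share 1980 of the 6077 exon bases of Tsix, none of them coding. Reads from these bases cannot be assigned to Tsix or Xist without the strand, so the Tsix value may include Xist reads. Whether the changes of Tsix and Xist are linked was not tested. The mean log2 level, unlogged and divided by the kilobases of exon, was 818 for Tsix and 24.2 for Xist. The within-library difference, Tsix minus Xist, moved by -1.76 on day 14 (adjusted p = 0.0071, limma over 1308 opposite-strand pairs), and the log2 of their summed values fell by 0.73 (limma adjusted p = 0.0147). Tsix makes up most of that sum, so its fall largely restates that of Tsix.

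**Figure D4:**
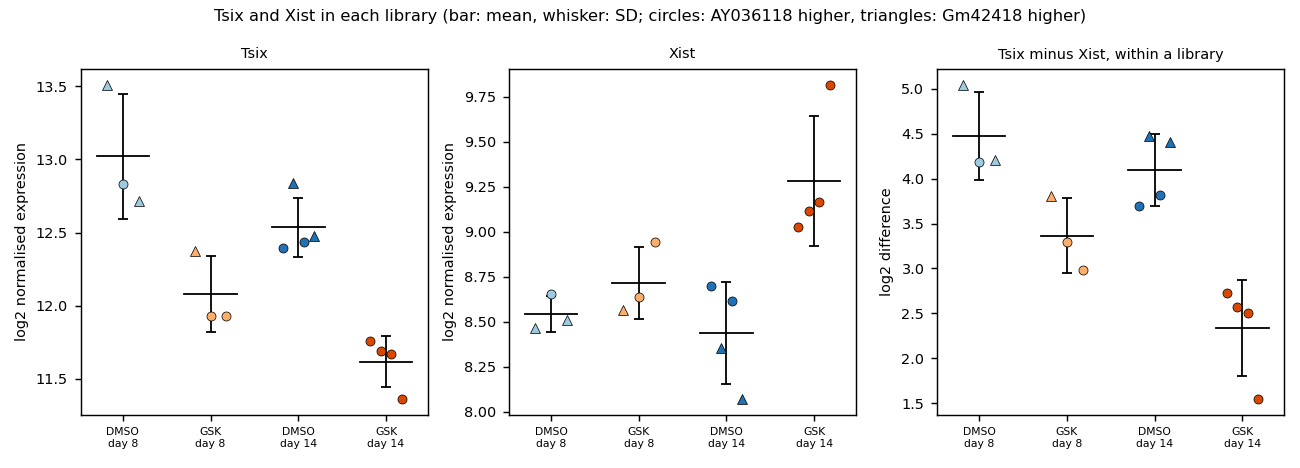
Log2 normalised expression of Tsix (left) and Xist (middle) and their within-library log2 difference (right) in each library by group, with means as bars, SD as whiskers and the 2 kinds of library as circles and triangles. On day 14 Tsix is lower and Xist higher in all 4 GSK libraries than in any DMSO library.

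Gm15491 (ENSMUSG00000087367, chr19:45749508-45752310, + strand) had the largest fall among the 14, and its partner Mgea5, the enzyme that takes O-GlcNAc off proteins, rose. Gm15491 read 8.37, 7.77, 7.01 and 7.49 in DMSO and 6.03, 6.20, 6.42 and 6.03 in GSK libraries of day 14. That is 2.81-fold lower, a log2 change of -1.49 (SE 0.28, limma adjusted p = 0.00661). On day 8 it read 8.19, 8.37 and 7.78 in DMSO and 7.77, 7.01 and 6.47 in GSK libraries, also without overlap (-1.03, limma adjusted p = 0.136). Mgea5 read 8.92, 8.56, 8.92 and 8.93 in DMSO and 9.46, 9.33, 9.26 and 9.43 in GSK libraries of day 14, and rose by 0.54 (limma adjusted p = 0.0218). Of the 751 exon bases of Gm15491, 551 (73.4%) lie in exons of Mgea5, mostly beyond the 134 coding bases shown above. The summed signal of the pair changed by 0.14 (limma adjusted p = 0.471), while the within-library difference of the 2 genes moved by -2.03 (limma adjusted p = 0.0045).

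AC061963.1 (ENSMUSG00000110773, chr9:44877891-44884397, + strand) overlaps the 5′ end of Kmt2a, a histone methyltransferase. It read 6.64, 6.51, 5.86 and 6.46 in DMSO and 5.04, 5.01, 5.05 and 4.75 in GSK libraries of day 14, without overlap. It fell 2.64-fold (log2 change -1.40, SE 0.26, limma adjusted p = 0.00685). On day 8 all 3 GSK libraries (6.18, 5.30 and 5.31) were also below all 3 DMSO libraries (7.85, 6.61 and 6.80). Kmt2a did not pass on day 14 (-0.20, limma adjusted p = 0.407). The difference within the pair did pass, at -1.20 (limma adjusted p = 0.0344).

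Gm45606 (ENSMUSG00000109715, chr11:75530277-75533071, - strand), which covers the 5′ end of the amino-acid transporter gene Slc43a2, fell together with that gene. It read 8.96, 8.64, 8.67 and 8.61 in DMSO and 7.85, 8.20, 7.95 and 7.99 in GSK libraries of day 14, without overlap (-0.72, SE 0.16, limma adjusted p = 0.0125). Slc43a2 read 11.67, 11.49, 11.25 and 11.57 in DMSO and 10.88, 10.96, 10.93 and 10.60 in GSK libraries, and fell by 0.65 (limma adjusted p = 0.0178). The pair's difference moved by -0.07 and did not pass (limma adjusted p = 0.84). On day 8 Gm45606 had gone the other way in sign, with 8.85, 8.97 and 9.42 in DMSO and 9.82, 9.33 and 9.34 in GSK libraries, which overlap. It shares 922 of its 2795 exon bases with Slc43a2.

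Gm11592 (chr11:97280128-97282897, + strand) starts 510 bases from the start of Npepps, an aminopeptidase gene, and shares only the 31 bases shown above. It read 11.13, 10.82, 10.13 and 11.30 in DMSO and 10.10, 9.56, 9.76 and 9.44 in GSK libraries of day 14. The lowest DMSO library, at 10.13, lay just above the highest GSK library, at 10.10. It fell 2.19-fold (log2 change -1.13, SE 0.29, limma adjusted p = 0.0253), while Npepps changed by -0.09 (limma adjusted p = 0.808). This fall lost the threshold without any one of 6 libraries, with limma adjusted p up to 0.0998 without GSK day 14 replicate 4. With the ribosomal RNA kind of library as a term the fall also lost the threshold, at -0.77 (limma adjusted p = 0.089). Using only the libraries with AY036118 higher, the change was -0.91.

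4930430E12Rik (chr4:6352105-6357530, - strand) overlapped no opposite-strand gene. The nearest protein-coding gene on either strand, Sdcbp, lay 8120 bases away. It read 7.41, 7.53, 7.16 and 7.40 in DMSO and 6.89, 6.66, 6.69 and 6.57 in GSK libraries of day 14, without overlap (-0.67, SE 0.13, limma adjusted p = 0.00828). On day 8 the groups were alike in mean, at 7.11 ± 0.20 in DMSO and 7.16 ± 0.06 in GSK libraries (SD, n = 3 each).

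The other 8 fell by between 0.53 and 0.68 on the log2 scale on day 14. Gm48383 lies inside Ttc7b, with no shared exon base, which encodes part of a complex that brings a lipid kinase to the plasma membrane, and read 6.27, 6.48, 6.07 and 6.48 in DMSO and 5.83, 5.72, 5.60 and 5.74 in GSK libraries (-0.60, limma adjusted p = 0.0139). Gm44851 overlaps the 5′ end of Furin, a protease that cleaves proproteins, and read 9.47, 9.88, 9.74 and 9.95 in DMSO and 9.04, 9.13, 9.44 and 8.85 in GSK libraries (-0.64, limma adjusted p = 0.0151). Neither gene's groups overlapped, although the nearest libraries of Gm44851 read 9.47 and 9.44. Plxna4os1 lies within Plxna4, a semaphorin receptor gene, and shares no exon base with it (-0.61, limma adjusted p = 0.0279). 0610040B10Rik starts 9 bases from the start of Zdhhc4, a protein palmitoyltransferase gene (-0.56, limma adjusted p = 0.0294). 2900093K20Rik lies inside Oser1 and shares no exon base with it (-0.68, limma adjusted p = 0.0306).

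Gm17201 lies within Ankrd52, Gm11712 within the lipid-transfer protein gene Pitpnc1, and Gm16845 spans Ecsit, which takes part in Toll-like receptor signalling and in complex I assembly. Their log2 changes were -0.64, -0.63 and -0.53, with limma adjusted p of 0.0409, 0.0415 and 0.0439. In each of the 8, all 4 GSK libraries of day 14 lay below all 4 DMSO libraries. Their partners Ttc7b, Furin, Plxna4, Zdhhc4, Oser1, Ankrd52, Pitpnc1 and Ecsit did not pass on that day. All 8 lost the threshold in limma without DMSO day 14 replicate 2 or without GSK day 14 replicate 4, with adjusted p up to 0.173, and Gm17201 did so in 9 and Gm16845 in 8 of the 14 fits that each left out 1 library.

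Across the 13 of the 14 that had a partner above the level limit, 1 partner fell (Slc43a2), 2 rose (Mgea5 and Xist) and 10 did not pass. To compare an antisense gene with its partner directly, the within-library log2 difference was tested over all 1308 opposite-strand pairs of genes above the limit. On day 14 it changed in 15 of the 147 antisense pairs, beside 9.56% of the 1308 pairs, so the share was close to the background. Without any one of the day 14 libraries other than DMSO replicate 3 the 15 pairs became 3 to 7. In 14 of the 15 the antisense gene moved down relative to its partner. The 15 include 5 of the 14 antisense genes that fell: Gm15491, Tsix, AC061963.1, Gm48383 (-0.95, limma adjusted p = 0.0267) and 2900093K20Rik (-0.77, limma adjusted p = 0.0357). In 4 others of the 15 the partner rose and the antisense gene did not pass. Among these, Adap2, which encodes a GTPase-activating protein for Arf, rose by 1.56 (limma adjusted p = 0.0013) with Adap2os at -0.12, and Adap2os read between 2.79 and 2.83 in the GSK libraries of day 14, under the level limit. The tetraspanin gene Cd9 rose by 1.05 with Gm28809 at -0.02, and the vesicle-transport gene Rab10 by 0.68 with Rab10os at -0.23. The 1 pair in which the antisense gene moved up was Gm10441 with Rbpj, the DNA-binding factor of Notch signalling, at 0.74 (limma adjusted p = 0.0267), with neither gene past the threshold alone.

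**Figure D5:**
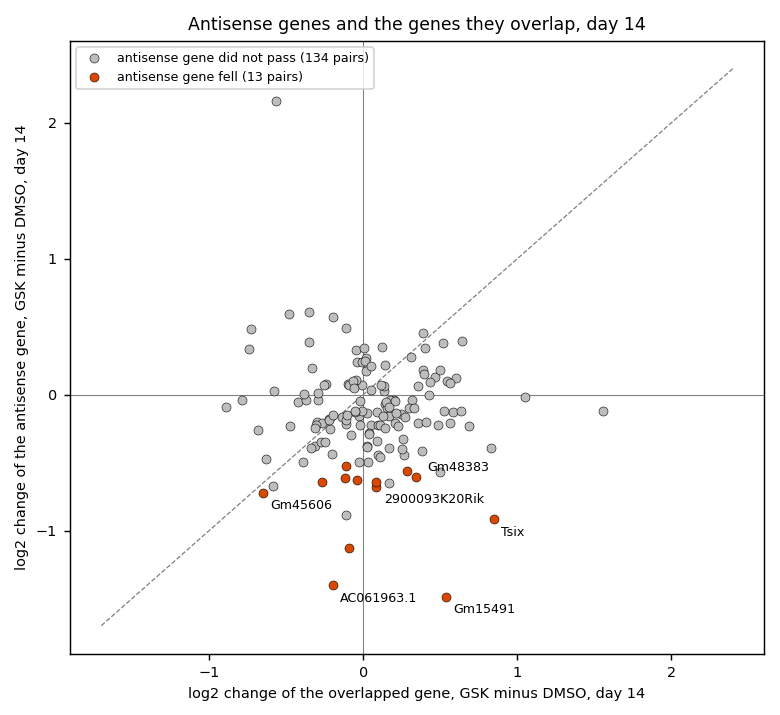
Day 14 log2 change, GSK minus DMSO, of the overlapped gene (horizontal axis) against that of the antisense gene (vertical axis) for 147 pairs, with the 13 pairs whose antisense gene fell in orange and the dashed line marking equal change. Tsix and Gm15491 lie low on the right, where the overlapped gene rose, and Gm45606 lies near the dashed line.

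Reads moved from a gene to its partner stay in the summed signal of the pair, but reads lost from unshared bases do not. The log transformation of the values is unknown, so unlogged values need not add up as reads do. On day 14 the summed signal rose in 12 and fell in 14 of the 147 antisense pairs. Among the 1308 pairs it changed in 18.6%, which is near the same share. Among the 13 pairs picked because the antisense gene fell, which is itself part of the sum, it fell in 6: Tsix with Xist, Gm45606 with Slc43a2 (-0.66), Gm11592 with Npepps (-0.59), Plxna4os1 with Plxna4 (-0.55), Gm17201 with Ankrd52 (-0.37) and Gm44851 with Furin (-0.37). This test was added after the values had been seen.

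On day 8, 1 antisense gene passed, B130046B21Rik, which overlaps the 3′ end of Prkag1, a subunit gene of the energy sensor AMPK. Among all genes 0.194% passed on that day. B130046B21Rik read 5.41, 5.40 and 5.56 in DMSO and 4.39, 4.69 and 4.37 in GSK libraries, without overlap, and fell by 0.97 (SE 0.18, limma adjusted p = 0.0361). This call was lost in 9 of the 14 fits that each left out 1 library: without DMSO day 8 replicate 1 or 3, GSK day 8 replicate 2 or 3, DMSO day 14 replicate 4 or any GSK library of day 14. Those 14 fits gave between 0 and 9 antisense genes on day 8, the most without GSK day 8 replicate 1. With the replicate number as a block the call was lost as well, and 2 other antisense genes passed. Of the 14 genes that fell on day 14, 11 had a negative change on day 8 and in 8 the day 8 groups did not overlap. A negative day 8 change was found in 59.8% of the 179 antisense genes and in 47% of all genes. For 23 of the 179 antisense genes all GSK libraries of day 8 lay below all DMSO libraries, and for 13 above, beside 8.14% and 8.01% of all genes. Within-library differences changed on day 8 in 5 of 147 antisense pairs, beside 1.53% of the 1308 pairs. In 4 the antisense gene moved down: Gm15491 with Mgea5 (-1.76), AC061963.1 with Kmt2a (-1.63), B130046B21Rik with Prkag1 (-1.19) and 2900093K20Rik with Oser1 (-1.09). Gm44206 with the DNA repair gene Mbd4 moved the other way (1.25). In DMSO libraries of day 8 Gm44206 read 3.32, 3.34 and 3.42, at or near the level limit of 3.32.

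No antisense gene passed a test of the difference between the day 14 and the day 8 change (0 in limma, beside 0.00841% of all genes, and 18 before adjustment, beside 8.3% of all genes). The fall on day 14 without a call on day 8 is thus not shown to differ between the days. Averaged over both days, 20 antisense genes fell and 3 rose, beside 7.77% and 6.73% of all genes (14.5% in either direction); the average uses the same libraries as each day's comparison. The 23 became 14 without GSK day 8 replicate 2, 11 without GSK day 8 replicate 3 and 13 without GSK day 14 replicate 4. Of these, 12 had also fallen on day 14. Pair differences changed on the average in 25 of 147 antisense pairs, 19 with the antisense gene lower and 6 with it higher, beside 17.3% of all pairs. Genes that fell on the average without a day 14 call include 4933423P22Rik in Ptprj, a receptor phosphatase gene, at -0.66, and 4930453C13Rik in Atxn1 at -0.55. The 3 that rose were Gm47566 opposite Gpr65, a proton-sensing receptor gene (0.58), C920021L13Rik (0.50) and Gm26811 opposite Plxna1 (0.38). Gm26811 read between 3.04 and 4.17 in the 14 libraries, close to the level limit of 3.32.

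Between day 8 and day 14, 8 antisense genes fell and 0 rose in GSK tumours, beside 3.95% of all genes lower and 3.05% higher (7.01% in either direction). In DMSO tumours limma called 0, beside 0.824% of all genes, and gave 32 with a p under 0.05 before adjustment, beside 15.4% of all genes. Gm45606 fell most in GSK tumours, by 1.49 (limma adjusted p = 0.000378), from 9.82, 9.33 and 9.34 to 7.85, 8.20, 7.95 and 7.99. The 8 became 2 to 4 without any one of GSK day 8 replicates 1 and 2 and the 4 GSK libraries of day 14. The others were Gm44851 (-0.71), Gm13556 in Dennd1a (-0.68), Gm44206 opposite Mbd4 (-0.70), Gm13822 opposite the interferon-induced gene Oasl1 (-0.70), 4930453C13Rik (-0.71), C920021L13Rik (-0.77) and Gm26811 (-0.58). Of the 8, 2 were under the level limit of 3.32 in at least 1 library: Gm26811 and Gm44206. In GSK tumours Gm26811 read 4.17, 3.74 and 3.79 on day 8 and 3.41, 3.26, 3.32 and 3.31 on day 14. Pair differences changed over time in GSK tumours in 10 of 147 antisense pairs, each with the antisense gene lower, beside 3.82% of all pairs. The GSK libraries of the 2 days also differed in 4T1 epithelial markers, of which 7 of 9 fell, with summed log2 levels of 10.81 to 11.91 on day 8 and 10.23 to 10.72 on day 14. The epithelial markers Spint2, Ocln and Esrp1 were under the level limit throughout. Of 8 endothelial markers 1 fell and all 8 had a negative change, with summed log2 levels of 10.47 to 11.15 on day 8 and 9.95 to 10.28 on day 14. Of 16 mitochondrially encoded genes 5 rose and 0 fell (median 0.73), and of 12 macrophage markers 1 rose and 0 fell. The part of these groups in the antisense changes was not tested.

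By level, Tsix was followed by Gm26716 (mean 11.25), Gm11592 (10.42), Gm44851 (9.67) and Gm37401 (9.64). All 415 exon bases of Gm26716 lie in exons of Sdc3, which encodes the proteoglycan syndecan-3, and its unlogged level per exon kilobase was 5851 against 96.0 for Sdc3. Gm26716 was between 11.25 and 12.08 in 11 libraries and at 10.01, 10.21 and 9.16 in DMSO day 8 replicate 2, GSK day 8 replicate 1 and DMSO day 14 replicate 1. In these libraries Sdc3 read 10.12, 8.72 and 10.77, of which 10.77 and 10.12 were its highest values anywhere, and the 3 libraries include both kinds by AY036118. Gm37401 shares 324 of its 347 exon bases with Rhoa, which encodes a small GTPase of the cytoskeleton. Rhoa fell by 0.74 on day 14 (limma adjusted p = 0.006), and Gm37401 read 8.47, 9.90, 10.24 and 10.13 in DMSO and 10.13, 10.22, 9.83 and 9.91 in GSK libraries, which overlap.

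Antisense genes with names of their own did not pass on day 14 apart from Tsix and Plxna4os1, among the 20 such genes of highest level. Zeb2os, opposite the transcription factor gene Zeb2, had a mean level of 8.98, and Tug1 one of 9.21. Kcnq1ot1, an imprinted RNA that silences genes around Kcnq1, changed by -0.02 and Tug1 by -0.14. Hotairm1, a myeloid RNA of the HoxA cluster, changed by -0.39 (limma adjusted p = 0.071).

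Genes whose products make, end or remove such RNAs were examined as lists. Of 20 genes of the RNA exosome and its cofactors above the level limit, limma called 0 on day 14 and gave 3 a p under 0.05 before adjustment, with a median log2 change of 0.13 beside 0.02 for all genes. Averaged over both days 4 of the 20 rose and 1 fell, beside 6.73% and 7.77% of all genes. Of 22 genes of 3′ end processing and termination, 2 fell on day 14 and 0 rose, beside 5.73% and 5.1% of all genes: Cpsf6 by 0.47 (limma adjusted p = 0.0268) and Cpsf7 by 0.49 (limma adjusted p = 0.0427), which encode the 2 large subunits of cleavage factor I. Of 7 nuclear-retained long RNAs, 2 rose on day 14 and 0 fell, beside the same shares of all genes: Malat1 rose by 0.93 (limma adjusted p = 0.0422) and Xist rose as given above, while Neat1 changed by -0.32 (limma adjusted p = 0.136).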

How the data were processed

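RNA of F4/80+ tumour cells was sequenced in 14 libraries. The deposited table holds log2 normalised values per Ensembl gene, without counts, made by the authors with Bowtie2, RSEM 1.2.29 and DESeq2 1.12.4 on mm10 (GRCh38 is also named), per the submitters' processing notes. The strand setting, annotation, filters and log transformation are not given in the sources used here, and the depth is unknown. Gene types and positions came from GENCODE M21, in which 24483 of the 24556 identifiers were found. The 11886 genes at an unlogged value of 10 or more in 3 or more libraries were fitted with limma 3.58.1 (R 4.3.3; trend, 4 group means, all libraries), two-sided, with Benjamini-Hochberg adjustment over all of them and a threshold of 0.05. Within-library differences and summed values of 1308 opposite-strand pairs were fitted likewise. Only the day 14 fit of single genes was tested on simulated data, not the other comparisons or the pair fits. Members and lists were chosen with earlier results of these data known. The text names every antisense gene past the threshold on day 14, up to 10 per other comparison, the 5 highest by level and by level per exon kilobase, up to 20 with names other than numbered ones, and 2 on each side of the filter. Genes named beside these, their partners and the lists, and the partners shown in pairs, were chosen after their values were seen. Alternatives covered the filter, scaling, pseudocount, trend, replicate block, ribosomal RNA split and each library left out.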

Additional observations from a re-analysis of the deposited data

Results flagged for a closer look

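Among the 14 antisense genes that fell on day 14, each of the 28 day 14 groups of 4 libraries was searched for a library far from the others; chance marks about 1 in 20 such groups. AC061963.1 was lowest in GSK day 14 replicate 4, at 4.755, with the other 3 GSK libraries between 5.01 and 5.05. Gm11712 was highest in GSK day 14 replicate 1, at 5.506, with the others between 5.09 and 5.16. The first library lies farther from the DMSO group than the rest of its group, and the second lies nearer to it.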

How the results depend on the processing

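On day 14 the 14 falls became 7 with no filter on low values, 5 when the fit included which ribosomal RNA model was higher (the split) and 5 among antisense genes that share no exon bases, where fewer genes are counted. The 1 call of day 8 became 0 with no filter, with the split or with only the compared groups fitted, and 2 other genes with the replicate block; a filter at 50 and the libraries with AY036118 higher each gave 1 other gene. The 23 calls averaged over days became 14 with no filter and 11 with the split. In DMSO tumours over time the count of 0 became 1 with a pseudocount of 10. In GSK tumours over time the 8 calls became 4 with no filter, with the replicate block and in libraries with AY036118 higher, 5 with the split, and 18 with only the compared groups. The 15 pair differences became 6 with the split and 9 in libraries with AY036118 higher. The replicate block gave 13 calls on day 14 (1 higher, 12 lower); libraries with the same number did not deviate together (correlations -0.16 to 0.17), so the numbers are not taken to pair them. Leaving out 1 library gave 5 to 17 calls on day 14 (5 without DMSO replicate 2 or GSK replicate 4), 0 to 9 on day 8, 11 to 27 averaged over days, 0 to 0 for the difference between days, 0 to 2 and 2 to 12 over time in DMSO and in GSK tumours, and 3 to 20 for pairs. The cause of these shifts was not tested. Tsix, Gm45606 and 4930430E12Rik stayed past the threshold on day 14 in every setting run for them. 4930430E12Rik has no overlapped gene, so no sum was run for it. Gm15491 and AC061963.1 missed the threshold only in the sum with the overlapped gene, which was -0.31 for AC061963.1 (limma adjusted p = 0.082). When summed with the overlapped gene, the change turned to 0.14 for Gm15491 and to 0.12 for 0610040B10Rik. Unknown depth limits what can be said of antisense genes near the filter.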

Other observations

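1700113A16Rik, opposite the 3′ end of the transcription factor gene Mef2d and picked out after its values were seen, had the largest positive day 14 log2 change among the antisense genes, 2.16 (SE 1.01, limma adjusted p = 0.176). It read 6.70 and 9.62 in GSK day 14 replicates 3 and 4, against 2.75 and 3.14 in replicates 1 and 2 and values between 2.76 and 3.83 in the other 10 libraries. In replicates 3 and 4 Mef2d read 10.07 and 9.60, its lowest values of the 14 libraries.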
